A study of Mus musculus with 12 samples.

Results

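Mice without hepatic Fbxl5 were compared with floxed controls while both received the cholestatic compound DDC (3,5-diethoxycarbonyl-1,4-dihydrocollidine). Of the 12 libraries of the series, the 6 from DDC-fed mice were used, chosen by the genotype and diet in their labels: 3 from Alb-Cre/FBXL5F/F mice and 3 from FBXL5F/F controls without Cre, each animal on 0.1% DDC for 2 weeks. Cre under the albumin promoter acts in hepatocytes, and both genotypes carried the floxed alleles and the diet. The assay was ATAC-seq, in which a transposase cuts open chromatin, on nuclei of hepatocytes separated by a 2-step collagenase perfusion, a preparation in which other liver cells can remain. Each library came from 1 mouse, and the question set by the series' design is how accessibility differs between the genotypes in cholestasis. The 6 standard-diet libraries were used only to show levels beside a result and to test the difference of genotype effects between diets. Among them the Fbxl5-deleted replicates 1 and 3 stood apart, with 261938 and 260515 listed peaks against 137004 to 151794 in the other 4.

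FBXL5 is the substrate receptor of an SCF ubiquitin ligase that senses iron and marks the iron regulatory protein IRP2 for degradation. Without it IRP2 accumulates, binds iron-responsive elements in messages such as those of the transferrin receptor and ferritin, and favours iron uptake over storage. DDC blocks the last step of heme synthesis, so porphyrin plugs form in bile ducts and injure the biliary tree, with reactive ductules, fibrosis and immune cells around portal tracts.

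A region is a stretch covered by the peaks of 1 or more libraries after an equal number, the strongest 168961 by the authors' fold enrichment, was kept per library. Fold enrichment is a peak's height over the local background of the same library. The lists hold no read counts, so sequencing depth is unknown. Of 283959 regions, 134553 had a kept peak in 3 or more of the 6 libraries and were tested, and 86970 of these were in all 6. Differences are Fbxl5-deleted minus control on a log2 scale of fold enrichment after within-library ranking, with SE from limma, and show a region's place among the regions of its own library. Control lists held 192468 ± 11760 peaks (SD, n = 3) and Fbxl5-deleted lists 176939 ± 12797 (two-sided exact permutation, p = 0.2). None of 7 library measures passed a test between the genotypes (exact permutation, adjusted p 0.42 to 0.9), and 3 against 3 cannot give a p below 0.1. Across regions the values of 2 libraries correlated at 0.879 to 0.894 among controls, 0.866 to 0.879 among Fbxl5-deleted libraries, and 0.869 to 0.878 between genotypes. Promoters of 22 of the 23 hepatocyte identity genes with an entry in the promoter table, Alb and Hnf4a among them, carried a listed peak in all 6 libraries, and only that of Afp, the fetal albumin-like gene, had none.

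No region was called different between the genotypes on DDC (0%, limma, Benjamini-Hochberg adjusted p under 0.05), and the lowest adjusted p was 0.129. At an unadjusted p under 0.05 there were 3339 regions higher in Fbxl5-deleted hepatocytes (2.48%) and 5803 lower (4.31%), together 6.79% of those tested. Lower regions were more in each of these fits, but by different margins: 1722 higher and 9225 lower with all deposited peaks, 3837 and 5030 without rank mapping, and 3418 and 4286 with the number of listed peaks as a covariate. The median SE was 0.26, and the median difference of all regions was −0.01. After ranking, all 3 Fbxl5-deleted libraries lay above all 3 controls at 7103 regions (5.28%) and below them at 8437 (6.27%). With all deposited peaks in place of an equal number, where the longer control lists count in full, these were 3769 and 13463. Among regions held by all 6 lists they were 4931 and 4939. Without the rank mapping they were 8215 and 7235, so the side with more regions depends on the scaling. Other settings, 4 in number, did call regions: 21 with peaks ranked by −log10 p (4 higher, 17 lower), 86 with no filter on how many lists hold a region (7 higher, 79 lower), 113 with a 50% reciprocal overlap and 243 with 500 bp windows. With reciprocal overlap, a listed peak that covered under 50% of its merged region counted as absent. In 500 bp windows a peak counted only in the window of its midpoint. So counted, 112 and 188 of these calls had no value in 1 genotype. That held for 0 of the 21 and 1 of the 86. All 113 and 243 overlapped a tested region of the fit reported here. Of them, 14 and 14 overlapped one with an unadjusted limma p under 0.05, against all 21 and all 86.

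**Figure D1:**
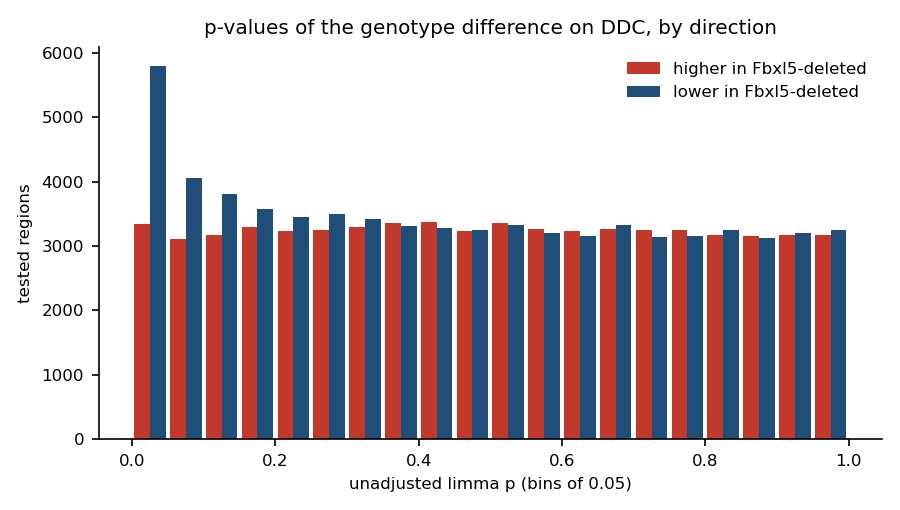
Number of tested regions (vertical axis) in bins of the unadjusted limma p (horizontal axis), in red for regions fitted higher and in blue for regions fitted lower in Fbxl5-deleted DDC libraries. The lowest bin holds 3339 higher and 5803 lower regions, while the bins above 0.35 hold similar numbers of both.

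The shares of regions whose genotypes did not overlap are given by place and strength, with no test between classes. Regions with no gene within 50 kb were below all controls in 8.05% and above them in 4.48% of 16031 cases, with a median difference of −0.05. Promoter regions (within 250 bases before to 50 after an annotated start) showed 5.95% and 5.04% of 10914. Among the strongest 20% of regions the shares were 5.72% lower and 5.64% higher, and among the weakest 20% 6.58% and 4.71%. Presence in the lists adds no separate evidence, because an unlisted region took the lowest value and so is already among those counted. Kept in all 3 controls and no Fbxl5-deleted library were 1364 regions (0.48% of all merged), and 760 (0.268%) the other way round. Of these, 1234 and 720 lay in the weakest 20%. That is largely fixed, as strength is the mean of all 6 libraries and 3 of them held the lowest value. Whether the longer control lists play a part was not tested.

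The regions with the smallest p-values are described although none passed. The strongest evidence for a lower level was at a region 15 kb downstream of Adamts12, a secreted metalloprotease (chr15:11364036-11364604). Its fold enrichment was 21.4, 23.2 and 18.7 in the DDC controls and 12.2, 8.88 and 9.85 in the Fbxl5-deleted DDC libraries, so the genotypes did not overlap. The fitted difference was −0.95 ± 0.14 (limma, adjusted p = 0.129). On the standard diet all 6 libraries lay between 4.26 and 5.64, below every DDC library of either genotype.

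Regions near Rp1 and Sap18b had that order of levels too, with controls on DDC highest, Fbxl5-deleted libraries on DDC between, and the standard diet lowest. At the first, 25 kb from Rp1, a microtubule protein of photoreceptors, values were 16.9, 17.9 and 19.8 in controls and 8.67, 10.8 and 9.85 in deleted libraries, against at most 4.61 in the 3 standard-diet libraries that listed it. Near Sap18b the DDC controls had 14.0, 20.2 and 16.5 and the deleted libraries 9.16, 7.01 and 9.13, and the standard-diet values did not exceed 3.69. Upstream of Il9, which encodes an interleukin, they had 16.4, 15.3 and 15.96 against 9.16, 8.88 and 6.89, with 3.69 to 8.49 on the standard diet, which overlapped the deleted DDC libraries. These 3 differences were −0.80 ± 0.14, −0.91 ± 0.16 and −0.85 ± 0.16 (limma, adjusted p = 0.245, 0.271 and 0.324).

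In a further set the Fbxl5-deleted DDC libraries stood at or near standard-diet levels. Within Sult2a5, a hydroxysteroid sulfotransferase gene, the controls had 10.1, 10.9 and 6.47 and the deleted libraries 2.89, 2.80 and 2.95, while 2 of the 6 standard-diet lists held the region, at 3.06 and 4.22. Upstream of 2510009E07Rik the values were 7.25, 11.7 and 7.76 against 2.89, 3.27 and 2.46, with 2.45 and 2.66 in the 2 standard-diet lists that held it. Downstream of Dio2, the deiodinase that activates thyroid hormone, they were 9.18, 11.4 and 10.4 against 3.37, 5.14 and 2.95, with 2.45 to 3.69 on the standard diet. Fitted differences at these 3 regions were −1.59 ± 0.26, −1.54 ± 0.26 and −1.39 ± 0.24 (limma, adjusted p = 0.183, 0.183 and 0.202).

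Some lower regions were already open on the standard diet. Within Vrk2, a serine/threonine kinase gene, the controls had 19.3, 24.7 and 22.4 and the deleted libraries 13.0, 12.2 and 12.3, next to 9.05 to 13.2 in standard-diet controls. Between genes on chromosome 2 (chr2:133338179-133338552) the DDC controls had 13.0, 13.1 and 12.9, a spread far smaller than the gap to the deleted libraries at 6.26, 6.07 and 5.91. There the standard-diet controls stood at 12.3, 14.8 and 12.3, at the level of the DDC controls, and the standard-diet deleted libraries at 6.11, 10.5 and 8.58. Near Calb2, which encodes calretinin, the difference was −0.74 ± 0.13, with 8.56 to 18.0 on the standard diet. At 2 more regions without a gene within 50 kb, on chromosomes 1 and 2, it was −1.48 ± 0.23 and −1.16 ± 0.20 (limma, adjusted p = 0.162 and 0.183), and there the standard diet was low, at no more than 6.15 and 5.27.

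Among regions higher in Fbxl5-deleted hepatocytes, the smallest p-value was at a region 30 kb downstream of Mup2, of the major urinary protein cluster of liver-secreted carriers (chr4:60104959-60105550). The fold enrichment was 9.66, 7.88 and 10.4 in the DDC controls and 19.3, 20.1 and 16.7 in the Fbxl5-deleted DDC libraries. The difference was 1.11 ± 0.16 (limma, adjusted p = 0.129), and the standard-diet libraries spread from 9.05 to 20.3 in both genotypes together. Within Acot11, an acyl-CoA thioesterase gene, the controls had 6.28, 5.25 and 6.04 and the deleted libraries 10.6, 10.98 and 11.5, which is where the standard-diet libraries stood, at 9.33 to 13.0. The region within Aldh1a1, a retinaldehyde dehydrogenase gene, had 5.31, 3.501 and 4.74 against 8.68, 8.88 and 10.8, with 4.00 to 7.34 on the standard diet. Differences there were 1.01 ± 0.19 and 1.15 ± 0.24 (limma, adjusted p = 0.408 and 0.421).

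Within Tbc1d31 the DDC controls had 7.73, 5.69 and 6.47 and the deleted libraries 14.5, 15.9 and 11.3 (1.15 ± 0.19, limma, adjusted p = 0.183). Regions were placed by gene spans only, so exons and introns were not told apart. Downstream of Polr1a, the largest subunit of RNA polymerase I, the difference was 0.63 ± 0.14. The 5 regions of this group with no gene within 50 kb had differences of 0.54 to 1.05 (limma, adjusted p = 0.421 to 0.516).

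**Figure D2:**
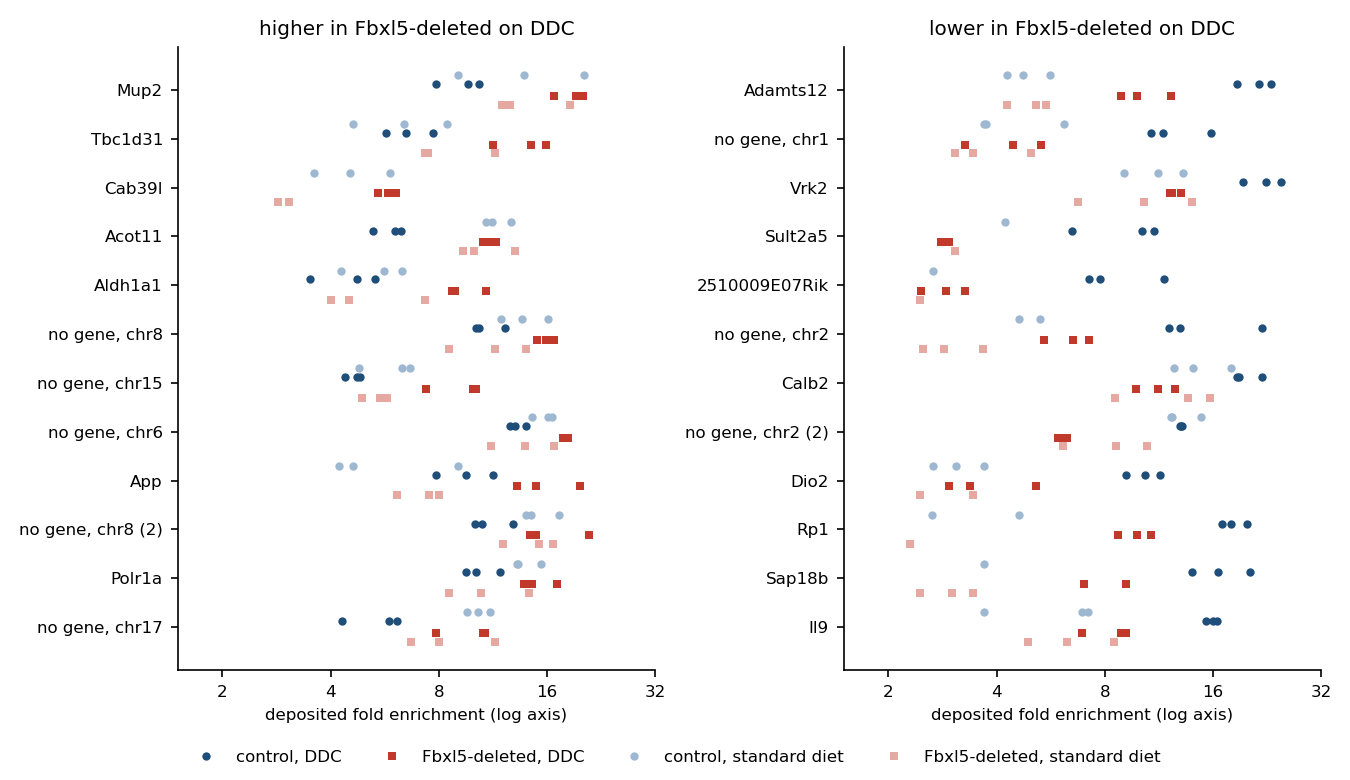
Fold enrichment deposited by the authors (log axis) in each of the 12 libraries at the 12 regions with the smallest p in each direction, labelled by the assigned gene; dark symbols are DDC and pale symbols standard-diet libraries, circles controls and squares Fbxl5-deleted, and a library that did not list the region has no symbol. At Adamts12 the DDC controls sit at 18.7 to 23.2, the Fbxl5-deleted DDC libraries at 8.88 to 12.2, and the standard-diet libraries at 4.26 to 5.64.

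The strongest regions kept in every library of one genotype and none of the other were also read. A region within Cab39l, the MO25-beta partner of the LKB1 kinase, was in no control list on DDC and had 5.78, 6.07 and 5.42 in the deleted libraries, but all 3 standard-diet controls listed it, at 3.59 to 5.86. Within Lats1, a kinase of the Hippo pathway, a region had 4.83, 4.81 and 5.18 in the DDC controls and was listed in no Fbxl5-deleted DDC library and in 1 standard-diet library, at 3.73. A region within Atp8b4, a phospholipid flippase gene, had 7.73, 4.38 and 3.88 in the DDC controls and was listed in none of the other 9 libraries. Upstream of Efna5, which encodes an ephrin, the controls had 6.28, 6.13 and 5.18 and 1 deleted library had 1.87, below the weakest peak kept.

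Whether the genotype effect differed between the diets was tested over all 12 libraries. None of 138589 regions was called (0%, limma, lowest adjusted p = 0.865), and 7980 had an unadjusted p under 0.05. Without the 2 standard-diet libraries that stood apart 0 were called and 6553 had such a p. The same fit called 1 region for genotype on the standard diet (0.000722%), and that fit includes those 2 libraries. At the Adamts12 region the interaction was −1.22 ± 0.26 and at the Acot11 region 0.96 ± 0.24, both with a limma adjusted p of 0.865. The order of levels between the diets was not tested.

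At the deleted gene itself (Fbxl5, chromosome 5, 43744618 to 43782149) the peak at the gene end, chr5:43781400-43782721, was listed in all 6 libraries. Its fold enrichment was 10.9, 9.14 and 10.2 in the controls and 9.11, 9.26 and 8.76 in Fbxl5-deleted libraries, and the groups overlapped (−0.06 ± 0.18). A region near the other end of the gene had 4.35, 3.94 and 5.18 against 4.34, 4.67 and 3.94 (0.02 ± 0.27). The 2 tested regions outside the gene that were assigned to it differed by 0.26 ± 0.24 and −0.20 ± 0.31. The labels do not say which part of Fbxl5 is floxed, and peaks outside that part cannot serve as a check of the deletion.

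Genes of iron handling were read in 4 lists: the FBXL5-IRP axis with IRP-bound messages, hepcidin and BMP-SMAD sensing, iron transport and storage, and iron-sulfur cluster assembly. No promoter region of these genes reached an unadjusted p under 0.05. The 58 tested promoter regions, of 53 genes, had differences from −0.38 to 0.26 with 27 above and 31 below zero and a smallest p of 0.135 (limma, unadjusted). On the ranked scale 6 of them did not overlap between the genotypes, against 5.04% higher and 5.95% lower of all promoter regions: Fdxr, Hfe and 1 of the 2 regions of Pcbp1 with all deleted libraries above, and Bmp6, Tfr2 and Ftl1 below. Bmp6, the ligand that raises hepcidin when iron is high, had 12.7, 13.9 and 13.3 in the controls and 10.8, 11.3 and 9.78 in the deleted libraries. Hamp, the gene of hepcidin itself, had 5.70, 5.05 and 5.53 against 5.36, 5.77 and 5.69 (0.15 ± 0.24), and Tfrc, the transferrin receptor gene stabilised by IRPs at the RNA level, 14.5, 13.5 and 14.7 against 14.6, 13.0 and 14.6 (0.08 ± 0.14). Both overlapped. Ireb2, which encodes IRP2, had 12.9, 14.2 and 12.3 against 13.2, 13.8 and 9.96 (−0.0005 ± 0.15). Aco1, which encodes IRP1, had 12.6, 12.2 and 10.4 against 10.8, 10.7 and 11.1 (−0.01 ± 0.15). The Hamp difference was negative with peaks ranked by −log10 p, and those of Ireb2, Aco1 and Tfrc took either sign over the alternatives, so no direction is given for them.

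The windows of 5 promoters are shown: that of Hamp, and those with the smallest p of each list. They were chosen after their values were seen. Each line runs from 250 bases before to 50 after the annotated start, 300 bases, taken from RefSeq (GRCm38.p6, the assembly of mm10). Capitals mark matches, on either strand, to AP-1 (TGANTCA, found in 6.99% of 21263 promoters), an E-box (CACGTG, 7.84%), a CCAAT box (CCAAT, 38.2%), a TATA box (TATAAA, 12.6%), a GC box (GGGCGG, 46.2%), a BMP response core (GGCGCC, 15.3%), an antioxidant response core (TGANNNNGC, 41.7%) and an ETS core (AGGAAG, 34.4%).
Hamp: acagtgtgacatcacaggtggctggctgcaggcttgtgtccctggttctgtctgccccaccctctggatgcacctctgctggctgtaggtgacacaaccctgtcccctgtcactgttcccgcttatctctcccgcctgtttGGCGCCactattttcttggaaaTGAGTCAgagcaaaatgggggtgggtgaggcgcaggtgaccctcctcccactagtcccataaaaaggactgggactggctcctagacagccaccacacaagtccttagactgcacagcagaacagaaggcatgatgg
Tfr2: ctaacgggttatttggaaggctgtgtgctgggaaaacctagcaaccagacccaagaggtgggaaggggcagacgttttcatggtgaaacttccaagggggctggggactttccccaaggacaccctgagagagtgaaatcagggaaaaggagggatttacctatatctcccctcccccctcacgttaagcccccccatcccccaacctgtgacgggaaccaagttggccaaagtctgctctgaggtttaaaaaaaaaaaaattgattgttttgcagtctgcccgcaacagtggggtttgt
Ftl1: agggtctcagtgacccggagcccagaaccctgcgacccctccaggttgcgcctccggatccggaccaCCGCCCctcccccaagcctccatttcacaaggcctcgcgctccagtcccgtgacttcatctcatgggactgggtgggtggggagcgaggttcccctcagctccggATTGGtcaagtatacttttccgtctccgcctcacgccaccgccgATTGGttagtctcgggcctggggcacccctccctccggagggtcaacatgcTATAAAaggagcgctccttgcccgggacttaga
Steap2: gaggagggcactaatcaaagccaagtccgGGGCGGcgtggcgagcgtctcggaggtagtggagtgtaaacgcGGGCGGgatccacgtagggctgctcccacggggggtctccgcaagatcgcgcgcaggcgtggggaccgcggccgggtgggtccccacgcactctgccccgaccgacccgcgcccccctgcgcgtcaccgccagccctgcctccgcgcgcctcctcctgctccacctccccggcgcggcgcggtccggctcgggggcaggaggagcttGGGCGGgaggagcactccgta
Fdxr: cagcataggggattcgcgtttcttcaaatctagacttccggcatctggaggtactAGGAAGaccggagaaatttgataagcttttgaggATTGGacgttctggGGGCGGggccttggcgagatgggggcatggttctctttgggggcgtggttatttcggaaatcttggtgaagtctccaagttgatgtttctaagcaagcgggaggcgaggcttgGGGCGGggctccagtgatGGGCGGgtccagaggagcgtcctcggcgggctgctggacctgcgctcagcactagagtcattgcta

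Hamp (chr7:30943980-30944279, minus strand) holds 1 AP-1 and 1 BMP response match. Tfr2 (chr5:137570470-137570769, plus strand), the iron sensor partner of transferrin, holds none of the 8 motifs. Its region had 12.4, 14.3 and 12.1 in the controls and 11.7, 9.37 and 9.67 in the deleted libraries (−0.24 ± 0.15), a sign that turned with 500 bp windows (0.17) and with peaks of −log10 q of at least 5 (0.034). Ftl1 (chr7:45459837-45460136, minus strand), the ferritin light chain, holds 2 CCAAT boxes, 1 TATA box and 1 GC box, and its region had 4.92, 3.59 and 3.86 against 3.22, 3.24 and 3.35 (−0.32 ± 0.30). Steap2 (chr5:5694040-5694339, minus strand), a metalloreductase, holds 3 GC boxes (−0.18 ± 0.14). Fdxr (chr11:115276920-115277219, minus strand), the ferredoxin reductase that feeds electrons to iron-sulfur assembly, holds 3 GC boxes, 1 CCAAT box and 1 ETS match (0.20 ± 0.16). Matches are letters only and say nothing of binding.

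**Figure D3:**
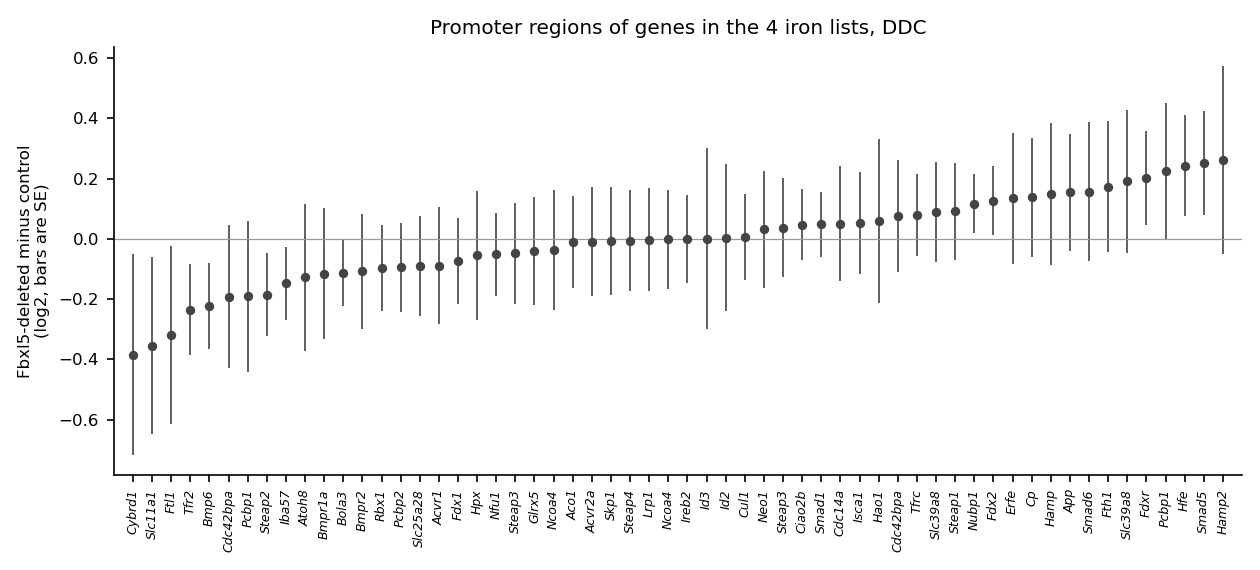
Difference between Fbxl5-deleted and control DDC libraries (vertical axis, log2, bars are SE) at the 58 promoter regions of genes in the 4 iron lists, in order of size. They run from −0.38 at Cybrd1 to 0.26 at Hamp2.

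Over all their regions, promoters included, the iron lists are set against 5.28% above and 6.27% below all controls in the whole set. The FBXL5-IRP list had 13 of 234 regions above all controls (5.56%) and 8 below (3.42%), with a median difference of 0.02. Its mean relative to all regions was −0.053, −0.063 and −0.049 in the controls. In the deleted libraries it was 0.020, −0.020 and 0.019, with no overlap. The means of the hepcidin, transport and iron-sulfur lists overlapped. No list mean was tested, and 30 lists were read. The hepcidin list had 20 and 20 of 295 (6.78% each) with 0.03. Iron transport had 8 and 6 of 169 (4.73% and 3.55%) and iron-sulfur assembly 7 and 3 of 107 (6.54% and 2.80%). The region of the first list with the smallest p lay within App, whose message carries an iron-responsive element, at 11.3, 7.88 and 9.49 in the controls and 14.9, 19.7 and 13.2 in the deleted libraries (0.83 ± 0.19, limma, adjusted p = 0.516). Under a 50% reciprocal overlap this and the next region took the opposite sign, −0.31 and 0.30. Upstream of Fth1, the ferritin heavy chain gene, values were 9.89, 11.04 and 7.98 against 6.14, 5.96 and 5.51 (−0.62 ± 0.20, limma, adjusted p = 0.621). At both regions the genotypes did not overlap. The promoter region of Fth1 was fitted higher (0.17), the highest of the 13 promoter regions of its list.

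Heme genes gave no common direction, with 4 regions above and 4 below all controls of 62 and a median difference of −0.0025. That is 6.45% on each side, against 5.28% above and 6.27% below of all regions. Abcg2, which exports porphyrins from the cell, was 1 of 7 genes with at least 3 regions lower at an unadjusted limma p under 0.01 and none higher. The count is given without a background, as the share of all genes that meet this rule was not worked out. Nor was the share of all regions under that limit. At an unadjusted limma p under 0.05, 4.31% of all tested regions were lower and 2.48% higher. The genes were picked by the rule, so each had to hold at least 3 such regions. Of the 18 tested regions of Abcg2, 4 were lower at an unadjusted limma p under 0.01, 1 within the gene and 3 downstream. Within the gene the values were 5.31, 7.003 and 3.88 in the controls and 2.34 and 2.46 in the 2 deleted libraries that listed it (−1.25 ± 0.31, limma, adjusted p = 0.544). At the farthest region downstream they were 10.1, 7.88 and 7.33 against 6.26, 4.21 and 3.94 (−0.76 ± 0.25). Of the 18 regions 13 were fitted lower and 5 higher. The promoter region of Abcg2 was fitted higher (0.098), the highest of the 8 promoter regions of its list. Kcnma1, a potassium channel gene, had 4 regions under that limit and 18 of 20 fitted lower (median −0.35). Chrm3, Exoc4 and Grik4 had 3 each, of 30, 21 and 36 tested regions. In the other direction BC107364 alone met the rule, with 3 of 16 regions.

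For antioxidant and heme breakdown genes, the region with the smallest p of each list and direction is given. Within Slc7a11, the cystine importer, values were 6.76, 6.57 and 4.31 in the controls and 2.89, 2.80 and 2.46 in the deleted libraries (−1.03 ± 0.29, limma, adjusted p = 0.577), and 1 standard-diet library listed it. Downstream of Bach1, the heme-binding repressor of antioxidant genes, they were 2.90, 3.501 and 3.88 against 5.78, 7.89 and 5.42 (0.95 ± 0.27, limma, adjusted p = 0.577). In the other direction, a region within Gsr, of the antioxidant list, was fitted higher (0.80 ± 0.28). One within Hmox2, of the heme breakdown list, was fitted lower (−0.72 ± 0.26, both limma, adjusted p = 0.639). No Fbxl5-deleted DDC library listed the Hmox2 region. The antioxidant list as a whole had 14 regions above and 18 below all controls of 275 (5.09% and 6.5%). The stress response and ferroptosis list had 16 and 9 of 216 (7.41% and 4.17%). Of all regions 5.28% lay above and 6.27% below.

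Several lists of hepatocyte function had more regions above than below all controls. Of 365 regions at hepatocyte identity genes 28 were above all controls and 11 below (7.67% and 3.01%, against 5.28% and 6.27% of all regions). Of the 28, 5 were kept in all 3 Fbxl5-deleted libraries and no control, which put them above by rule. For the other direction this was so for 0 of the 11. In the list 60.5% of regions were fitted higher against 48.3% of all regions (51.7% lower). The list's median difference was 0.05 beside −0.01 for all regions. The list's mean relative to all regions was −0.19, −0.24 and −0.17 in the controls and −0.09, −0.17 and −0.10 in the deleted libraries, which overlapped. With all deposited peaks, where the median of all regions moved to −0.10, it was −0.06. Upstream of Alb, values were 11.96, 11.6 and 11.5 in the DDC controls and 14.4, 18.3 and 14.3 in the deleted DDC libraries (0.52 ± 0.14, limma, adjusted p = 0.577), and the standard-diet difference was 0.55 ± 0.14 in the fit of all 12 libraries. Only the deleted mice carried Cre under the albumin promoter, so effects of this transgene and of the Fbxl5 deletion cannot be told apart there. Drug-metabolising genes had 21 and 9 of 262 (8.02% and 3.44%) and glucocorticoid and insulin genes 28 and 15 of 432 (6.48% and 3.47%), and their list means did not overlap between the genotypes. Periportal and urea cycle genes had 20 and 7 of 239 (8.37% and 2.93%) and lipid genes 34 and 18 of 424 (8.02% and 4.25%), with overlapping list means. Cholesterol genes, with 11 and 3 of 260, were under the whole set on both sides (4.23% and 1.15%), and their list means overlapped. Within Tiparp, a target of the aryl hydrocarbon receptor, the controls had 9.36, 7.60 and 8.63 and the deleted libraries 14.5, 14.6 and 10.4 (0.71 ± 0.18, limma, adjusted p = 0.544), but the sign was negative under a 50% reciprocal overlap (−2.07). Within Cd36, the fatty acid importer, they had 6.64, 10.1 and 10.9 against 15.2, 12.6 and 11.9 (0.65 ± 0.18, limma, adjusted p = 0.577). The NF-kB and chemokine list had 16 above and 6 below of 219 (7.31% and 2.74%). Its median was −0.01, with more regions fitted lower than higher, 114 against 105.

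Bile acid transporters and receptors had 12 regions above and 14 below all controls of 268 (4.48% and 5.22%). Bile acid synthesis genes had 12 and 13 of 186 (6.45% and 6.99%), while 58.1% of their regions were fitted higher, with a median difference of 0.04. The circadian list's mean relative to all regions was −0.013, −0.018 and −0.052 in the controls. In the deleted libraries it was 0.043, −0.0089 and −0.011, with no overlap. The AP-1, circadian, growth hormone, cell cycle, hypoxia, acute phase, pericentral, heme breakdown, TGF-beta and ductular lists had medians from −0.01 to 0.04. Within them, a region upstream of Arntl, a core clock activator, had 11.1, 12.7 and 9.49 in the controls and 5.30, 7.94 and 4.43 in the deleted libraries (−0.86 ± 0.22, limma, adjusted p = 0.544) and was listed in no standard-diet library. Near Ehf, a ductular transcription factor, values were 15.0, 15.3 and 13.4 against 9.64, 9.34 and 7.88 (−0.61 ± 0.15), and upstream of Tgfbr2, a TGF-beta receptor, 15.2, 16.4 and 13.2 against 7.34, 8.83 and 9.98 (−0.68 ± 0.16, both limma, adjusted p = 0.544). The Tgfbr2 sign turned under a 50% reciprocal overlap (0.27). Other regions of these lists were fitted higher. Those of smallest p lay downstream of Nr1d2 (circadian, 0.86 ± 0.33), near Anxa3 (ductular, 0.88 ± 0.27) and within Tead1 (TGF-beta, 1.06 ± 0.31). Their adjusted p was 0.656, 0.604 and 0.602 (limma).

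**Figure D4:**
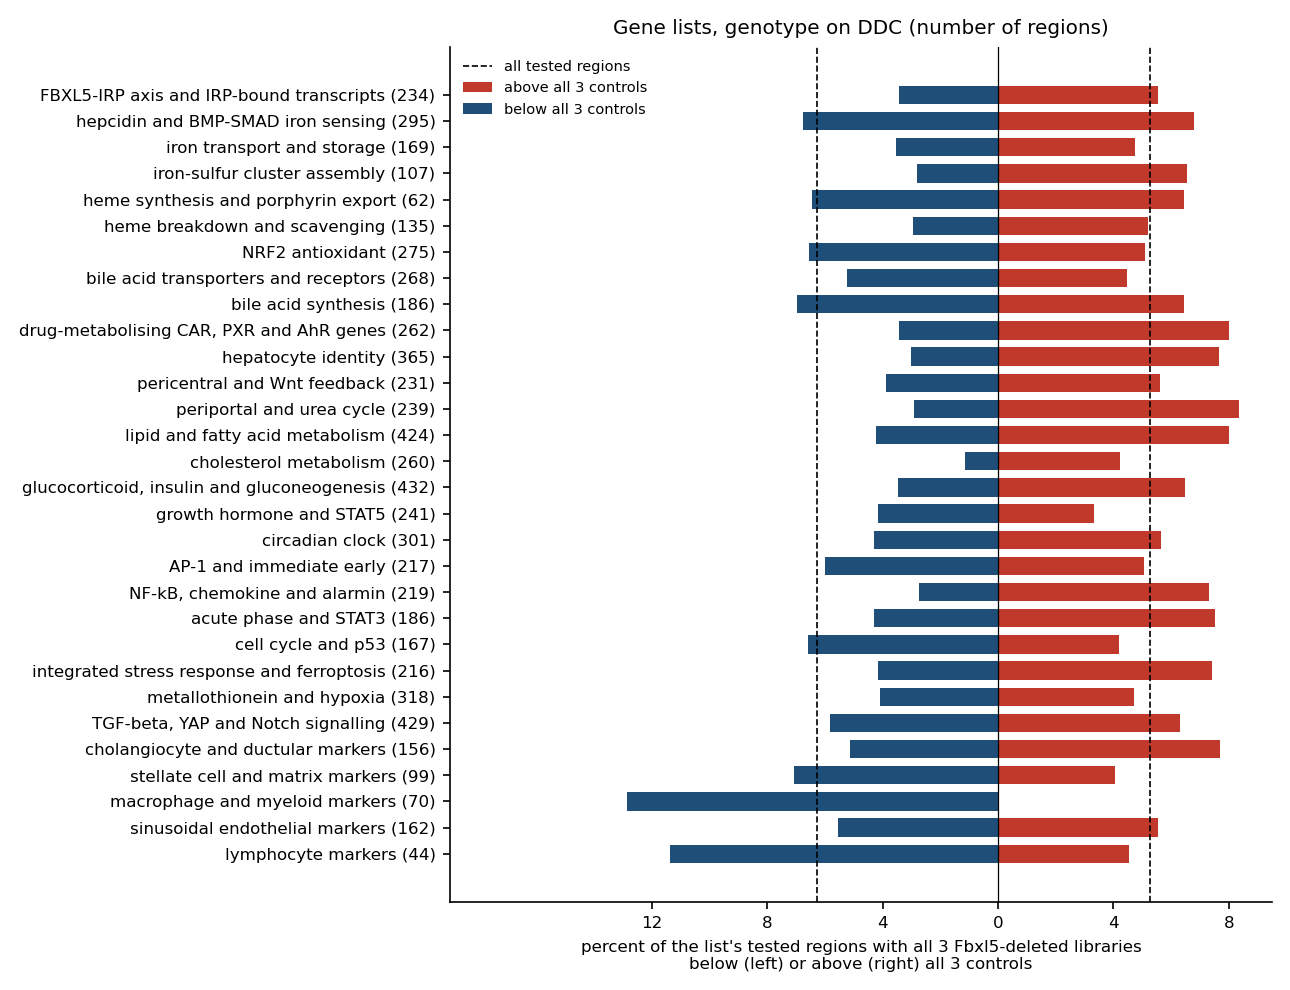
Percent of each list's tested regions (number in brackets) at which all 3 Fbxl5-deleted DDC libraries lay below (left, blue) or above (right, red) all 3 DDC controls, with the shares of all tested regions as dashed lines (6.27% and 5.28%). Macrophage and myeloid markers have 12.9% below and none above.

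Macrophage and myeloid markers were mostly lower in Fbxl5-deleted libraries. Of 70 regions at macrophage and myeloid marker genes, 9 were below all controls (12.9%, against 6.27% of all regions) and 0 above (against 5.28%). Of these 9, 4 were kept in all 3 controls and no Fbxl5-deleted library. They entered the test through the controls alone and, with unlisted regions at the lowest value, had to lie below them. Over all regions this was so for 1364 of 8437. In the list 48 regions were fitted lower and 22 higher (31.4%, against 48.3% of all regions), and the median difference was −0.14. That median was −0.07 where all 6 lists had to hold a region, −0.07 in the fit of all 12 libraries and −0.27 with all deposited peaks. The highest-ranked region in the other direction lay within Ly6c2, a monocyte surface antigen gene (0.50 ± 0.23, overlapping), and turned to −0.26 in 500 bp windows. Relative to all regions, the list's mean was −0.18, −0.16 and −0.18 in the controls and −0.34, −0.34 and −0.25 in the Fbxl5-deleted libraries, with no overlap. Of the list's 14 genes with an entry in the promoter table, 10 had a promoter peak in at least 1 library, and at all 10 the mean fold enrichment, with an unlisted promoter at 0, was lower in Fbxl5-deleted libraries. The same held for 9 of 11 stellate and 13 of 22 hepatocyte identity genes. Clec4f, Itgam and Ly6c2 were each listed in 1 control library and Fcer1g in 2, so they were lower through presence in a list alone. Timd4, Marco, Vsig4 and S100a9 had none in any library. The summed promoter fold enrichment was 25.5, 41.0 and 26.5 in the controls and 14.0, 19.8 and 10.9 in the deleted libraries. The sum counts all listed peaks, and the control lists were longer. The part of list length in it was not tested. The list means above rest on equal numbers of peaks, but they include the 4 regions that entered through the controls alone.

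Levels at these promoters were low. C1qb, a complement subunit made by macrophages, had 4.90, 4.81 and 4.31 in the controls and 3.37, 2.80 and 2.46 in the deleted libraries (−0.65 ± 0.29, limma, unadjusted p = 0.0383). C1qc had 4.37, 4.77 and 4.31 in the controls and 3.27 and 2.35 in the 2 deleted libraries that listed it (−0.81 ± 0.31). At Cd68 the groups overlapped (−0.08 ± 0.31). The promoter with the smallest p was that of S100a8, a calcium-binding protein of neutrophils and monocytes (chr3:90668821-90669120, plus strand), shown because the list's counts lead on it, with its TATA box and 2 ETS matches in capitals.
S100a8: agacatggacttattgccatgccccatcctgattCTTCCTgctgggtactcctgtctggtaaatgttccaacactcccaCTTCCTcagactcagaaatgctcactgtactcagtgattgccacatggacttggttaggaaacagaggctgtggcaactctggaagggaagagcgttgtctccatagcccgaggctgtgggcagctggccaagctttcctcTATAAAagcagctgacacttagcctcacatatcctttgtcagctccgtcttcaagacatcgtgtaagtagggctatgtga

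The S100a8 region had 4.35, 9.42 and 6.95 in the controls and 3.86, 3.69 and 3.45 in the deleted libraries (−0.77 ± 0.28, limma, unadjusted p = 0.0134, adjusted p = 0.646). It was listed in 2 of the 6 standard-diet libraries, at 3.07 and 2.44. In a bulk preparation, fewer cells of a type and a less open region per cell cannot be told apart. Of all regions, 5.28% lay above and 6.27% below all controls. Lymphocyte markers had 2 regions above and 5 below of 44 (4.5% and 11.4%), with overlapping list means. Of their 13 promoters with an entry, 10 were listed nowhere. Stellate and matrix markers had 4 and 7 of 99 (4.04% and 7.07%), with a median difference of −0.07. Of these regions 61 were fitted lower and 38 higher (38.4%, against 48.3% of all regions). Their summed promoter values, which count all listed peaks, were 41.6 to 57.7 in controls and 33.8 to 40.8 in deleted libraries. The stellate list means, on equal numbers of peaks, overlapped between the genotypes. Acta2, Col3a1 and Pdgfra had no promoter peak. A region upstream of Acta2, the smooth muscle actin of activated stellate cells, had 7.73, 12.7 and 9.49 against 5.30, 4.67 and 4.92 (−0.89 ± 0.22, limma, adjusted p = 0.544). The stellate region of smallest p in the other direction lay within Vim (0.60 ± 0.27, limma, adjusted p = 0.716). Sinusoidal endothelial markers had 9 and 9 of 162 (5.56% each), and ductular markers 12 and 8 of 156 (7.69% and 5.13%). Whether the lower regions above, such as those near Adamts12 and Rp1, lie in hepatocytes or in other cells was not tested.

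**Figure D5:**
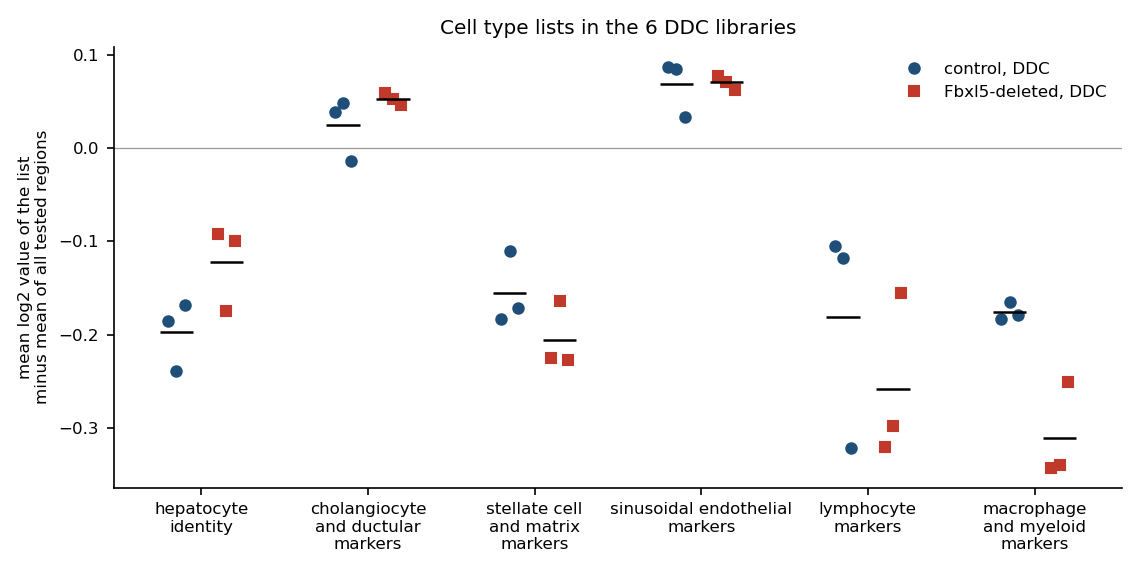
Mean log2 value of each cell type list minus the mean of all tested regions (vertical axis) in each of the 6 DDC libraries, with controls as circles, Fbxl5-deleted as squares and group means as lines. The macrophage and myeloid list runs from −0.18 to −0.16 in controls and from −0.34 to −0.25 in Fbxl5-deleted libraries.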

How the data were processed

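The assay was ATAC-seq on 6 DDC libraries, 3 per genotype. Per the submitters' processing notes, MACS2, Bowtie2, fastp, Picard, SAMtools, deepTools and bedtools were used with mm10, versions not given. The authors deposited 1 peak list per library, with fold enrichment (a ratio over local background), −log10 p and −log10 q, a display score and a summit offset. Sequencing depth is unknown, which leaves no counting interval for any value.

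Lines with equal chromosome, start and end were joined, chromosomes 1 to 19 and X kept, and the strongest 168961 peaks per library, the length of the shortest list, merged at 1 bp overlap. Each library's log2 fold enrichment was mapped by rank to a common distribution, and an unlisted region took the lowest value. Regions in at least 3 of 6 libraries entered a test by limma (version 3.58.1, R version 4.3.3, two-sided, Benjamini-Hochberg over all tested regions, threshold 0.05), checked on simulated data. Regions were assigned to the nearest gene within 50 kb. P-values measure the spread between these libraries.

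Named were the 12 regions of smallest p per direction, the smallest p per direction in each of 30 gene lists, all regions of Fbxl5 and iron gene ends, the 6 strongest regions present in 3 of 3 against 0 of 3 lists per direction, and up to 5 genes per direction with 3 or more regions of p under 0.01. Single promoters of iron and marker genes were added after values were seen. Members and lists were chosen with earlier results of these data known. A few regions that this rule names are not reported here, and the counts over named regions leave them out.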

Additional observations from a re-analysis of the deposited data

How the results depend on the processing

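Calls depended on how regions were built. With 0 called in the fit reported (limma), 9142 regions had an unadjusted p under 0.05; ranking by −log10 p called 21, no filter 86, a 50% reciprocal overlap 113 and 500 bp windows 243, and the other alternatives, including each fit without 1 library, called 0. The lists hold no counts, and presence near the weakest kept peak is unsteady. Same-numbered libraries of the 2 genotypes correlated at 0.00853 to 0.0395 in their deviations, and differently numbered ones at −0.0345 to 0.0115. Whether same-numbered libraries were paired was not tested. The fit with the replicate block called 0.

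Regions above and below all controls numbered 3769 and 13463 with all deposited peaks and 4062 and 3903 with −log10 q of at least 5, and 4931 and 4939 where all 6 lists had to hold a region. Without 1 library, which leaves fewer values to separate, they were 12022 to 14360 and 14308 to 15902. Regions in 3 of 3 against 0 of 3 lists were 346 higher and 488 lower at −log10 q of at least 5, 2175 lower under reciprocal overlap and 1357 higher in windows, and without 1 library 1411 to 2804 higher and 2500 to 4193 lower. The difference in median peak width ran from -7 to 4 bp without 1 library.

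Of 2138 values for 125 named regions, 2074 kept sign and side of the threshold, 30 passed it and 34 changed sign. Of 300 values for the medians of 30 gene lists, 80 moved by more than the spread between libraries and 74 differed in sign. Under reciprocal overlap App was −0.31, Tiparp −2.07, Fth1 0.30, Tgfbr2 0.27, Ireb2 0.89 and the Fbxl5 region at 43745212 −0.34. In windows Slc25a28 was −0.34, Ly6c2 −0.26, Ppargc1a 0.13, Tfr2 0.17 and Ireb2 0.0027. By −log10 p Tfrc was −0.0067, Hamp −0.13 and the Fbxl5 gene-end region 0.017. At −log10 q of at least 5 Tfr2 was 0.034 and Ireb2 0.0019. Without rank mapping Aco1 was 0.0027, Ireb2 0.0037 and Cd68 0.0080. With listed peaks as a covariate Tfrc was −0.0099 and Ireb2 0.065. With all deposited peaks Fbxl5 43745212 was −0.10. Without 1 library, differences whose sign changed ran from −0.12 to 0.16 at Fbxl5 43745212, −0.19 to 0.032 at the Fbxl5 gene end, −0.39 to 0.052 at Fbxl5 43789446, −0.021 to 0.14 at Tfrc, −0.063 to 0.078 at Aco1, −0.082 to 0.13 at Ireb2 and −0.17 to 0.045 at Cd68. The cause of these changes was not tested.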
